A study of Mus musculus with 6 samples.

Results

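HOX genes encode homeobox transcription factors that give cells their position along the body and limb axes. The 37 clustered HOX genes with a row in the expression table, of 17854 genes in all, were taken by name: every symbol made of Hox, a cluster letter from a to d and a paralog number. They comprised 11 genes of cluster A, 10 of cluster B, 8 of cluster C and 8 of cluster D. RefSeq lists 39 such genes in mouse, and the other 2, Hoxc12 and Hoxd12, were not analysed here.

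The libraries came from Tomato+ cells of the knee cartilage of male C57BL/6 mice, labelled as chondrocytes. The 3 MSC-derived libraries (Inject Prrx) were from mice with osteoarthritis induced by transection of the anterior cruciate ligament, whose joints had received mesenchymal stem cells (MSCs) sorted from the inguinal fat of Prrx1-Cre; R26tdTomato donors, and the cells sequenced were the Tomato+ cells of the repaired tissue. The 3 endogenous libraries (Native Prrx) were from Tomato+ articular cells of Prrx1-Cre; R26tdTomato mice matched for age and sex. In both groups the red label rests on Prrx1-Cre, which is active in limb bud mesenchyme and marks the descendants of that lineage rather than current Prrx1 expression. Cell origin, surgery and injection differed together between the groups, and their parts cannot be told apart. Each group came from 3 mice, as many as its libraries. No source used here ties a given library to a given mouse, so p-values measure the spread between these libraries.

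The libraries held between 22060628 and 24881796 expected counts each. The MSC-derived libraries varied little among themselves (biological coefficient of variation 6.77%) and the endogenous ones more (35.3%). Endogenous replicate 1 stood apart, with 3449 genes at 0 against 1323 and 1375 in the other endogenous libraries. Of 1345 genes averaging 10 to 30 counts in endogenous replicates 2 and 3, 39.7% were at 0 in replicate 1, and the same held for 3 of 8 HOX genes in that range. Results that rest on this library are therefore also given without it. The label of the MSC-derived cells was only partly borne out by markers. Col2a1, the main cartilage collagen, was at 465 ± 18.4 CPM (counts scaled to a common library total; SD, n = 3) in MSC-derived and 33776 ± 127 in endogenous libraries, and all 15 chondrocyte markers tested were lower. All 15 pan-leukocyte markers were higher instead, with a summed level of 10937 to 11141 CPM against 350 to 489. All 13 macrophage, 11 neutrophil and 10 erythroid markers tested were higher as well, and all 10 osteoblast markers were lower. None of the chondrocyte and leukocyte markers was at 0 in all libraries of a group. The part of these cells in the HOX results was not tested. In bulk samples, fewer cells of a type and less RNA per cell cannot be told apart, and this holds for every HOX value below.

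The mammalian HOX genes lie in clusters on different chromosomes, and genes of the same paralog number in different clusters descend from one ancestral gene. Within a cluster, low paralog numbers sit at the 3′ end and are used early and towards the head, and high numbers at the 5′ end are used late, towards the tail and along the limb. Paralogs 9 to 13 of clusters A and D pattern the limb segments, Hoxc genes of the high numbers mark the hindlimb, and connective tissue cells of adults keep the HOX pattern of the site where they arose. Cluster A genes and Hoxb4 are also known in blood stem and progenitor cells.

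Summed HOX expression was lower in MSC-derived than in endogenous cells in clusters A, C and D in both units, whereas cluster B was higher in CPM and lower in transcripts scaled by length (TPM). Summed over all 37 genes, HOX transcripts were at 44.3, 43.9 and 40.4 CPM in MSC-derived replicates 1 to 3 and at 272, 215 and 217 CPM in the endogenous ones. The groups did not overlap, and the mean was 5.48-fold lower in MSC-derived cells (42.9 ± 2.11 against 235 ± 32.2 CPM; SD, n = 3; sums were described without a test). Of the 22 members that passed the filter on low counts, 17 were lower in MSC-derived cells, 0 were higher and 5 did not pass the test (edgeR quasi-likelihood test, Benjamini-Hochberg adjusted p of 0.05 or less over 14289 genes). Among all genes tested, 30.3% were lower and 31.3% higher, 61.6% in all. At an unadjusted p under 0.05, 1 member (Hoxb4) was higher, and DESeq2 also called 1 member higher. The median log2 fold change was -2.55 over the members tested and 0.05 over all genes tested. All 17 lower members had every MSC-derived library below every endogenous one, and 19 of the 22 members tested did not overlap between groups, against 73.3% of all genes tested. The 17 ranged from 4.48% to 31.4% of the endogenous level. The filter left out 15 members, which had at most 27 counts in any library and are described by their counts. Of the 22 members tested, 12 had at least 10 counts in every MSC-derived library, and 10 of these were called lower.

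**Figure D1:**
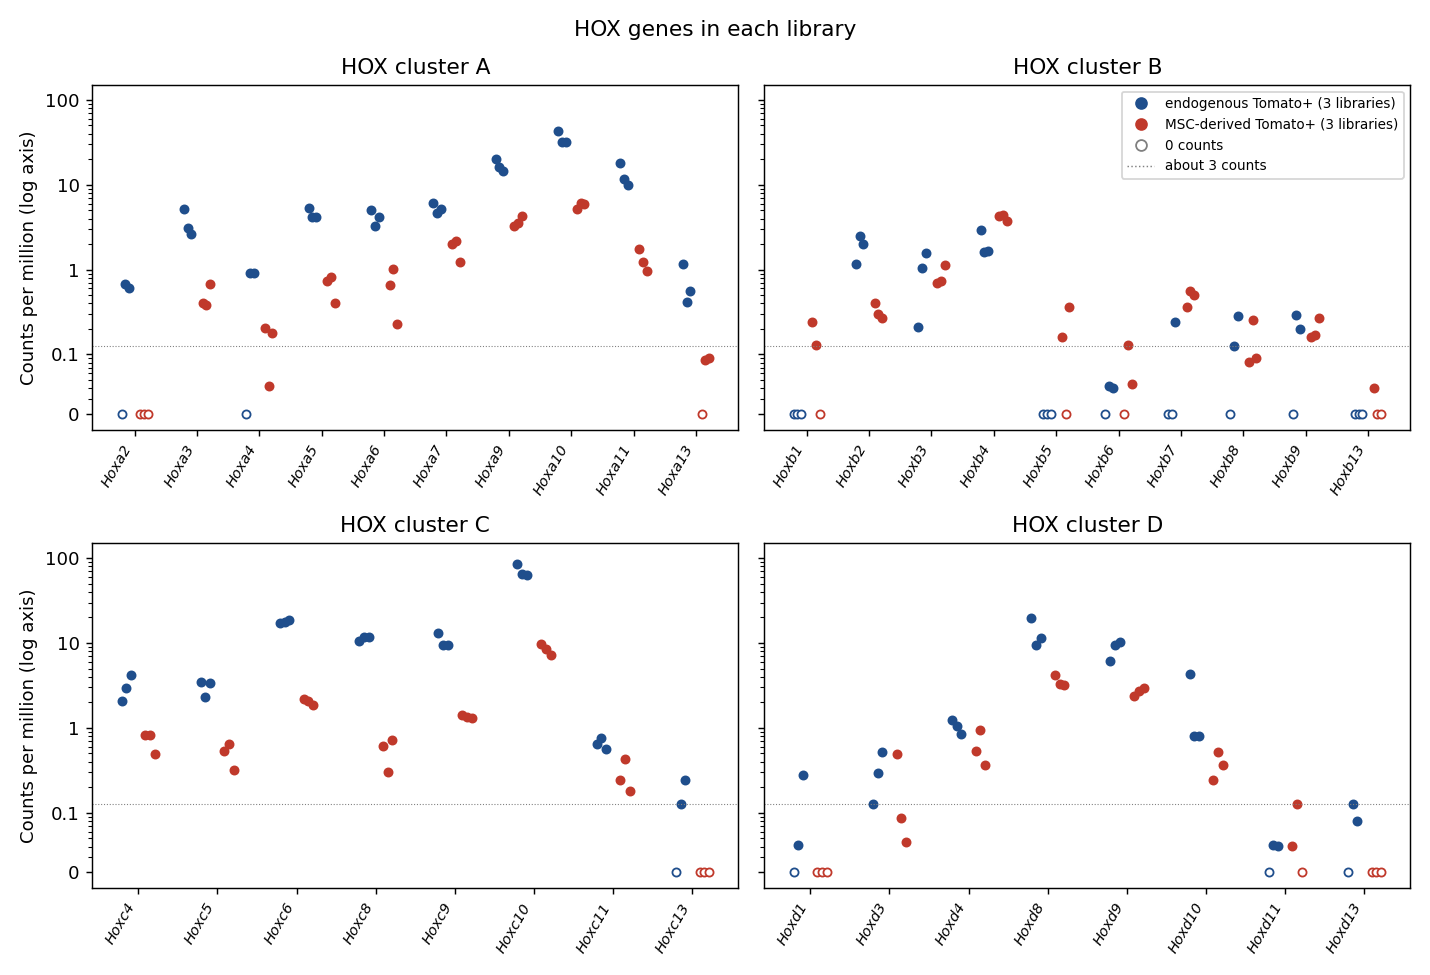
CPM of 36 HOX genes in each library on a log axis, by cluster and paralog number, with genes at 0 drawn as open circles on the lowest tick and a dotted line at about 3 counts. The 3 endogenous libraries (blue) lie above the 3 MSC-derived ones (red) for most genes of clusters A, C and D, whereas Hoxb4 shows the opposite order in CPM, with overlap in TPM.

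Cluster C held the most abundant HOX gene, Hoxc10, and the largest single decrease, that of Hoxc8. Its summed level was 8.46-fold lower in MSC-derived cells (14.0 ± 1.74 against 118 ± 12.1 CPM; SD, n = 3), and 6 of its 7 tested members were lower. Hoxc10, a hindlimb and lumbosacral gene, had 242, 198 and 161 counts in MSC-derived replicates and 1997, 1560 and 1586 in endogenous ones. It was the most abundant HOX transcript per length in both groups and was 9.06-fold lower in MSC-derived cells (log2 fold change -3.18, SE 0.17; edgeR adjusted p = 3.05e-06). Hoxc8, which acts in the thoracic region and the brachial spinal cord, fell furthest among the tested members, to 4.48% of the endogenous level. It had 15, 7 and 16 counts in MSC-derived and 250, 277 and 289 in endogenous libraries (log2 fold change -4.48, SE 0.36; edgeR adjusted p = 2.40e-05). No MSC-derived library came near the lowest endogenous one for either gene.

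Hoxc6, a marker of thoracic and forelimb levels, had 54, 49 and 41 counts against 400, 423 and 469 (log2 fold change -3.24, SE 0.18). Hoxc9, a thoracic gene further towards the 5′ end, had 35, 31 and 29 against 307, 226 and 234 counts (log2 fold change -3.09, SE 0.26). Both lay at about the same size of decrease as Hoxc10. The 3′ genes Hoxc4 and Hoxc5, which act at cervical levels, had 11 to 20 and 7 to 15 counts in MSC-derived libraries against 49 to 105 and 55 to 83 in endogenous ones, with log2 fold changes of -2.23 (SE 0.47) and -2.71 (SE 0.47). Hoxc11, a hindlimb gene next to Hoxc10, was counted 6, 10 and 4 times against 15, 18 and 14. Its groups did not overlap, but its log2 fold change of -1.30 (SE 0.60) did not pass the test (edgeR adjusted p = 0.0969). Hoxc13, a hair follicle and tail gene, had 0 counts in all MSC-derived libraries and 0, 3 and 6 in endogenous ones, and was too rare to test.

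Most tested genes of cluster A were lower. Its summed level was 5.78-fold lower (14.9 ± 0.565 against 85.9 ± 16.0 CPM; SD, n = 3), and 7 of its 8 tested members were lower. Hoxa10, which patterns the upper hindlimb segment, was the second most abundant HOX transcript per length in both groups, with 126, 141 and 131 counts in MSC-derived and 1016, 760 and 800 in endogenous libraries (log2 fold change -2.77, SE 0.17; edgeR adjusted p = 6.92e-06). Hoxa11, which with its cluster D paralog patterns the middle limb segment, had 43, 29 and 21 against 425, 281 and 247 counts and showed the largest decrease of the cluster (log2 fold change -3.44, SE 0.35; edgeR adjusted p = 9.82e-05). In both genes the groups were far apart, and endogenous replicate 1 was the highest library.

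Hoxa9, a limb and blood progenitor gene, had 80, 82 and 94 counts against 469, 389 and 363, a log2 fold change of -2.32 (SE 0.21). Hoxa7 changed least among the members called lower, with 49, 51 and 27 counts against 141, 112 and 129 (log2 fold change -1.67, SE 0.34; edgeR adjusted p = 0.00400). Even so, its highest MSC-derived library was far below its lowest endogenous one. Hoxa3, Hoxa5 and Hoxa6, which act in the neck, lung and trunk, had 5 to 24 counts in MSC-derived libraries and 65 to 125 in endogenous ones, and their log2 fold changes were -2.98 (SE 0.49), -2.91 (SE 0.42) and -2.81 (SE 0.57).

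The 3 untested genes of cluster A were low in both groups. Hoxa2, a hindbrain and second branchial arch gene, had 0 counts in all MSC-derived libraries and 0, 16 and 15 in endogenous ones, so its mean was at least 3.30-fold lower when MSC-derived libraries are set to the floor of 3 counts per library. Hoxa4 had 5, 1 and 4 counts against 0, 22 and 23, and Hoxa13, which patterns the hand and foot, had 0, 2 and 2 against 27, 10 and 14. Hoxa13 alone of these 3 did not overlap between groups. Without endogenous replicate 1 all 3 passed the filter and were lower (edgeR adjusted p = 9.37e-05 for Hoxa2, 0.000774 for Hoxa4 and 0.00379 for Hoxa13). The calls of Hoxa2 and Hoxa4 rest on leaving that library out, since their adjusted p was 0.112 to 0.114 and 0.286 to 0.403 without each MSC-derived library in turn, and 0.0603 and 0.220 under DESeq2 with all libraries. Hoxa13 was at 0.0537 to 0.0593 without each MSC-derived library and at 0.00596 under DESeq2.

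Cluster D was also lower, though its 5′ limb genes were scarce in both groups. Its summed level was 3.42-fold lower (7.49 ± 0.487 against 25.6 ± 5.36 CPM; SD, n = 3), and 3 of its 4 tested members were lower. Hoxd8 had 102, 76 and 71 counts in MSC-derived and 463, 224 and 283 in endogenous libraries (log2 fold change -2.04, SE 0.32; edgeR adjusted p = 0.00101). Hoxd9, a limb gene of the stylopod, had 59, 64 and 65 against 145, 223 and 254 (log2 fold change -1.79, SE 0.28; edgeR adjusted p = 0.00112). These were the 2 abundant genes of the cluster, and neither overlapped between groups.

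Hoxd10, a hindlimb and motor neuron gene, rested on 1 library. It had 6, 12 and 8 counts in MSC-derived and 100, 19 and 20 in endogenous libraries, so endogenous replicate 1 was at 5.32 times the mean CPM of the other endogenous libraries. With all libraries its log2 fold change was -2.48 (SE 0.84; edgeR adjusted p = 0.0345), and without endogenous replicate 1 it was -1.27 (edgeR adjusted p = 0.0513). Over 15 alternatives its adjusted p ran from 0.0113 to 0.136. Hoxd4 had 13, 22 and 8 counts against 29, 25 and 21, with a log2 fold change of -0.88 (SE 0.56; edgeR adjusted p = 0.206). The groups overlapped, with MSC-derived replicate 2 above endogenous replicate 3. Hoxd1, Hoxd3, Hoxd11 and Hoxd13, the ends of the cluster, had at most 13 counts in any library and were not tested. Hoxd11 and Hoxd13, which shape the lower limb and digits in the embryo, had at most 3 counts in any library.

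The direction of cluster B depended on the unit. Its sum was at 6.43, 6.73 and 6.44 CPM in MSC-derived libraries and at 4.27, 5.59 and 5.99 CPM in endogenous ones. In CPM every MSC-derived library was thus above every endogenous one, by a mean of 1.24-fold, and the difference in Hoxb4 alone was larger than that of the sum. In TPM the order was the reverse, with 3.90, 3.94 and 3.71 in MSC-derived and 4.83, 6.50 and 6.47 in endogenous libraries, a mean 1.54-fold lower without overlap. The TPM sums of the other clusters were lower too, by 8.76-fold (A), 12.2-fold (C) and 5.38-fold (D). Cluster B thus showed the smallest decrease in that unit. In CPM the decreases were smaller, at 5.78-fold (A), 8.46-fold (C) and 3.42-fold (D). Other genes shifted likewise between units. Hnrnpa1 was at 114 in MSC-derived against 108 CPM in endogenous libraries, but at 86.1 against 119 TPM. Rbbp4 was at 181 against 122 CPM and 52.8 against 52.5 TPM. The TPM decrease of cluster B thus cannot be told apart from this shift between units. Hoxb4, a gene of the neck region that is also known in blood stem cells, had 105, 104 and 83 counts in MSC-derived and 68, 38 and 41 in endogenous libraries. Its groups did not overlap in CPM (4.16 ± 0.359 against 2.05 ± 0.738; SD, n = 3) but did in TPM, at 2.22, 2.31 and 1.94 against 2.40, 1.17 and 1.21. It was the only tested member with a positive log2 fold change (0.91, SE 0.37), which just missed the threshold (edgeR adjusted p = 0.0657). Without endogenous replicate 1, its highest endogenous library, the log2 fold change was 1.18 (edgeR adjusted p = 0.00113), and with all libraries the DESeq2 adjusted p was 0.0390. Over 16 alternatives its adjusted p ran from 0.00113 to 0.177.

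Hoxb2, a hindbrain gene, was the exception within the cluster and was lower, with 10, 7 and 6 counts against 27, 59 and 50 (log2 fold change -2.62, SE 0.55; edgeR adjusted p = 0.00430). Hoxb3 lay between them, with 17, 17 and 25 counts against 5, 25 and 39 (log2 fold change -0.27, SE 0.74; edgeR adjusted p = 0.768), and its groups overlapped. The 7 untested genes of the cluster were rare in every library. Hoxb7, a trunk gene, had 9, 13 and 11 counts in MSC-derived and 0, 0 and 6 in endogenous libraries without overlap, and passed the filter and the test only without endogenous replicate 3 (edgeR adjusted p = 0.0149). Hoxb5 had 4, 0 and 8 counts against 0 in all endogenous libraries, a mean 1.40-fold above the floor of 3 counts per library. Its groups overlapped, as MSC-derived replicate 2 was at 0 too, and its DESeq2 adjusted p was 0.305. Hoxb1 had 6, 3 and 0 counts against 0 throughout. Hoxb6, Hoxb8, Hoxb9 and Hoxb13 had at most 7 counts in any library. By mean CPM, 28 members were lower and 9 higher in MSC-derived cells, and 8 of the 9 higher ones lay in cluster B, though Hoxb8 and Hoxb9 were lower by mean TPM; for all but Hoxb4 these means rest on at most 13 counts a library. That the decrease differed between cluster B and the other clusters was not tested.

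**Figure D2:**
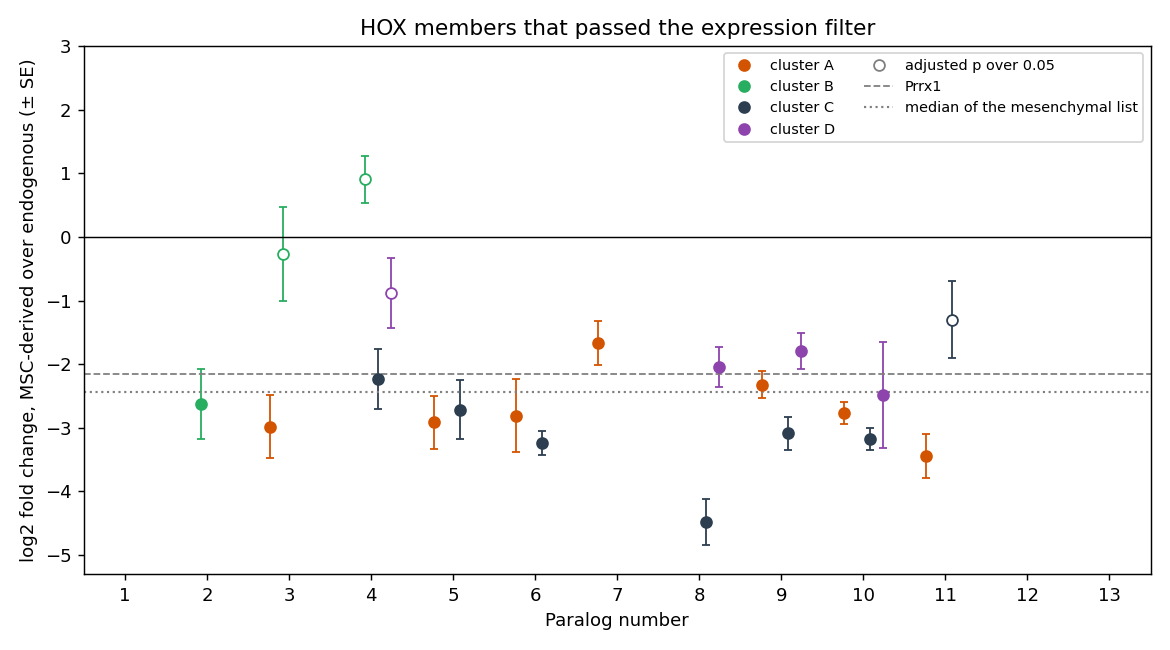
Log2 fold change (MSC-derived over endogenous) with its standard error for 21 of the 22 HOX genes tested, against paralog number and coloured by cluster, with open circles where the edgeR adjusted p was over 0.05. Horizontal lines give Prrx1 (-2.15) and the median of the mesenchymal marker list (-2.44), and Hoxb4 at 0.91 is the only point above 0.

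Paralogs were compared by groups along the clusters, and the differences between the groups were not tested. Of the members tested, 3 of 7 in paralogs 1 to 4, 7 of 7 in paralogs 5 to 8 and 7 of 8 in paralogs 9 to 13 were lower, with median log2 fold changes of -0.88, -2.81 and -2.62. The sums were 1.81-fold, 5.68-fold and 6.61-fold lower in CPM in the same order, and 3.02-fold, 8.25-fold and 10.1-fold lower in TPM. Among all genes tested, 30.3% were lower. All 3 tested genes of cluster B lay in paralogs 1 to 4, so paralog number and cluster cannot be fully told apart in these counts. Of the 7 tested members of paralogs 5 to 8, Hoxa5, Hoxa6, Hoxc5 and Hoxc8 passed the filter on their endogenous counts. They had 5 to 24 counts in MSC-derived libraries. The 4 members of that group that the filter left out, Hoxb5 to Hoxb8, had a higher mean CPM in MSC-derived cells, on at most 13 counts in any library. Hoxb8 was lower by mean TPM. Single 3′ genes fell as far as 5′ ones, with Hoxa3 at a log2 fold change of -2.98 and Hoxb2 at -2.62 against -2.32 for Hoxa9 and -1.79 for Hoxd9. Paralog 4 lay at 5.63 ± 0.744 against 6.79 ± 0.744 CPM (SD, n = 3), with Hoxb4 and Hoxc4 on opposite sides. Paralog 10, whose 3 members are all lumbosacral and hindlimb genes, was 7.47-fold lower (14.6 ± 0.890 against 109 ± 20.4 CPM). All 3 members of that paralog group were called lower.

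Within each library, the make-up of HOX expression was compared by TPM, a unit corrected for gene length and library total. Cluster B held 13.7%, 14.0% and 14.6% of all HOX TPM in MSC-derived libraries and 1.68%, 3.23% and 3.20% in endogenous ones. Cluster C held 37.2% ± 2.31 against 54.3% ± 1.83, cluster D 17.9% ± 0.325 against 11.3% ± 1.40, and cluster A 30.7% ± 1.90 against 31.7% ± 1.53 (SD, n = 3). The shares of clusters B, C and D thus did not overlap between groups, whereas those of cluster A did. Paralog 10 made up 35.6% ± 0.298 against 47.3% ± 2.40, and paralog 4 made up 11.2% ± 0.740 against 2.49% ± 0.731. The mean paralog number weighted by TPM was 7.95 to 8.04 in MSC-derived and 8.50 to 8.85 in endogenous libraries. As shares of 1 total, these values move against each other.

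**Figure D3:**
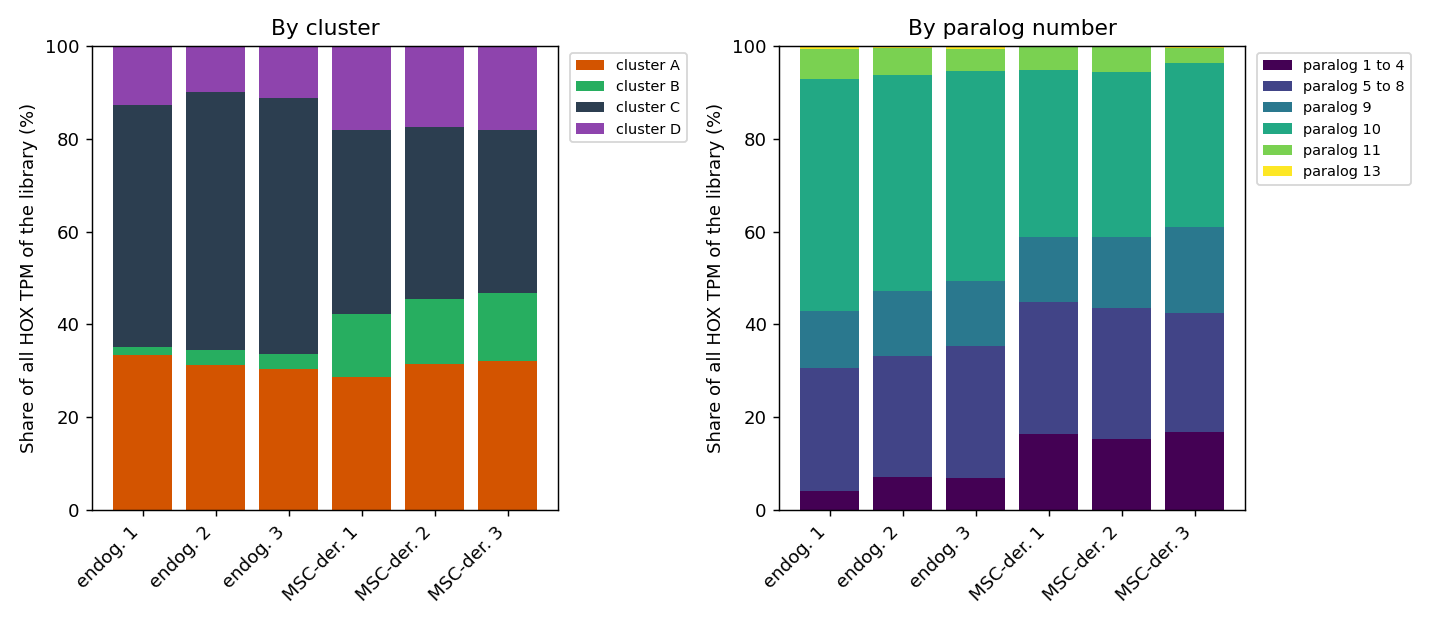
Share of all HOX TPM of each library held by each cluster (left) and by paralog number (right), as stacked bars for the 3 endogenous and 3 MSC-derived libraries. Cluster B takes 13.7% to 14.6% of MSC-derived and 1.68% to 3.23% of endogenous HOX TPM, and paralog 10 is the largest single paralog group in all libraries.

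Despite the difference in level, the HOX genes followed a similar order in both groups, less so among the top few. Hoxc10 ranked first and Hoxa10 second in both, with 22.2% and 12.3% of HOX TPM in MSC-derived and 32.8% and 13.7% in endogenous cells. Of the 10 most abundant members in each group, 9 were shared, and of the 5 most abundant, 3. Across the 37 members, mean TPM in the groups gave a Spearman rho of 0.836, and 0.908 across the 27 members of clusters A, C and D; these are descriptions across genes, which share libraries and are not independent replicates. Among the 10 most abundant members of either group, the largest shift in rank was that of Hoxb4, from rank 19 in endogenous cells (0.671% of HOX TPM) to rank 4 in MSC-derived cells (7.87%).

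Promoter sequence was set beside these values for the most abundant, the highest and the most reduced members for which RefSeq gives a window (build GRCm38.p6). Hoxc10 and Hoxc8 came first by level and by decrease but had no window, and Hoxa10, with annotated starts at 2 sites, and Hoxa11 were next. Hoxb4 is shown as the member with the positive fold change. The 250 bases before each start are given 5′ to 3′ on the gene's strand, with CpG dinucleotides in capitals.
Hoxa10, chr6:52234940-52235189, minus strand: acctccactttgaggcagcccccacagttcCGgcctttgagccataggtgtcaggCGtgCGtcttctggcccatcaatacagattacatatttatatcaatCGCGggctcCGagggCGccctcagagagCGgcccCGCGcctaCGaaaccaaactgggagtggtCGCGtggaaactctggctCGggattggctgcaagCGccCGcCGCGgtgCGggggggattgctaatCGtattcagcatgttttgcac
Hoxa10, chr6:52240855-52241104, minus strand: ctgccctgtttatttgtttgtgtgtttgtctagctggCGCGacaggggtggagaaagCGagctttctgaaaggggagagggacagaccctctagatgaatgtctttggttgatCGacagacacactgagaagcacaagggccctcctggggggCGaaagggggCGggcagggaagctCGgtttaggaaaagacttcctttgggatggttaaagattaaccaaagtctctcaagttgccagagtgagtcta
Hoxa11, chr6:52245811-52246060, minus strand: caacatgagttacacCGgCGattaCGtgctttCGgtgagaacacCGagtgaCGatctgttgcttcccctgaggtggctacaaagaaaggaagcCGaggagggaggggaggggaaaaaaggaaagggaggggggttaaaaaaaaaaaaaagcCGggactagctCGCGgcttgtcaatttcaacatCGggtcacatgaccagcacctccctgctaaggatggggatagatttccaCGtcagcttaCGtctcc
Hoxb4, chr11:96318017-96318266, plus strand: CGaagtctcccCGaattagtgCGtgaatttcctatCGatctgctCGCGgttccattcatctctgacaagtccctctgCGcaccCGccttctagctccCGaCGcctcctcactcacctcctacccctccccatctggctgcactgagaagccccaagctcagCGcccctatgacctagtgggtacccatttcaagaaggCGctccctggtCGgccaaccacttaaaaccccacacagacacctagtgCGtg
The first Hoxa10 window held 20 CpG dinucleotides and the second 7, whereas Hoxa11 held 13 and Hoxb4 held 14. The number thus depended on the start used for Hoxa10, and CpG number was not tested against fold change.

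Over the 23 windows of 300 bases (250 before and 50 after the start) that matched 21 members, the median CpG number was 15, against 7 over all 32851 windows in the table. A CpG observed-over-expected ratio of at least 0.6 was found in 52.2% of HOX windows and 35.8% of all windows. On either strand, the TATA box core TATAAA occurred in 4 HOX windows, 17.4% of them against 13.6% of all windows. The HOX-PBX composite site TGATTNAT occurred in 2 (8.70% against 3.22%). The MEIS and PKNOX site TGACAG occurred in 2 (8.70% against 19.2%) and the GC box CCGCCC in 10 (43.5% against 35.7%). Neither Hoxb4 nor Hoxa11 held any of these 4 motifs. Matches were counted separately for each motif, and overlapping matches were not removed.

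HOX proteins bind DNA together with TALE homeodomain cofactors of the PBX, MEIS and PKNOX families. Of 9 TALE genes tested, 1 was higher, 2 were lower and 6 did not pass the test, with a median log2 fold change of -0.11. Among all genes tested, 31.3% were higher and 30.3% lower, the shares to set beside the counts of this and the following lists. Pbx2, a HOX dimerisation partner, had 1028, 977 and 799 counts in MSC-derived and 434, 389 and 339 in endogenous libraries (log2 fold change 1.19, SE 0.15; edgeR adjusted p = 0.000281). Meis2 and Pknox2, which are used in limb mesenchyme and connective tissue, were lower, with log2 fold changes of -1.99 (SE 0.34) and -2.88 (SE 0.39). Meis1 had 65 to 95 against 88 to 188 counts and a log2 fold change of -0.89 (SE 0.36; edgeR adjusted p = 0.0650).

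HOX clusters are kept silent by polycomb complexes and active by trithorax and MLL complexes. Of 27 polycomb genes tested, 5 were higher, 8 were lower and 14 did not pass the test (median log2 fold change -0.03). The core PRC2 subunit Eed and its partner Jarid2 were higher, both by a log2 fold change of 0.50 (SE 0.14 and 0.16). The PRC1 members Pcgf2 and Cbx6 were lower, with -2.58 (SE 0.25) and -1.47 (SE 0.09). Each complex also had members called in the opposite direction and members that did not pass the test, so neither moved as a whole. Of 11 trithorax and MLL genes, 1 was higher (Dpy30, an MLL complex subunit, 0.79, SE 0.13), 3 were lower and 7 did not pass the test (median -0.14). Among the 3 lower ones, the H3K27 demethylase Kdm6b had a log2 fold change of -0.80 (SE 0.08). The medians of both lists lay near that of all genes tested.

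Retinoic acid activates 3′ HOX genes, and Gdf11 sets the trunk to tail transition in 5′ HOX use. Of 11 tested genes of these inputs, 1 was higher, 8 were lower and 2 did not pass the test, with a median log2 fold change of -1.35. Cyp26b1, which degrades retinoic acid, had 46, 113 and 70 counts against 1357, 1420 and 1530, a log2 fold change of -4.30 (SE 0.31; edgeR adjusted p = 1.36e-05). Crabp2, which carries retinoic acid to the nucleus, had a log2 fold change of -3.65 (SE 0.22), and Gdf11 of -2.33 (SE 0.28). The retinoic acid receptor gene Rara was the 1 higher gene, by 0.25 (SE 0.07).

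Other genes of limb identity and connective tissue were mostly lower too. Of 16 tested limb and position factors, 14 were lower, 0 were higher and 2 did not pass the test, with a median log2 fold change of -2.34. Among all genes tested, 30.3% were lower and 31.3% higher. Pitx1, a hindlimb determinant, had 249, 212 and 191 counts against 1448, 2112 and 2243 (log2 fold change -3.23, SE 0.18), and its target Tbx4 had 30, 49 and 60 against 135, 202 and 177 (-1.94, SE 0.37). The forelimb gene Tbx5 also was counted, at 30, 61 and 53 against 262, 342 and 317 (-2.74, SE 0.33). Shox2, a gene of the proximal limb segment, had a log2 fold change of -3.86 (SE 0.18). All 18 mesenchymal markers were lower too, with a median of -2.44, and 12 of the 17 lower HOX genes fell further than that median. The 5 tested HOX genes that were not called did not. Medians of the chondrocyte and osteoblast lists were lower still, at -5.90 and -5.68, and no tested HOX gene fell that far.

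Prrx1, the gene whose Cre marks these cells, had 417, 424 and 342 counts in MSC-derived and 2037, 1411 and 1516 in endogenous libraries (log2 fold change -2.15, SE 0.17). Of the 17 lower HOX genes, 14 had a log2 fold change below that of Prrx1 and 3 above it. The 5 tested members that were not called also lay above it. Set against Prrx1 in the same library, summed HOX CPM was 2.42 to 2.61 times Prrx1 CPM in MSC-derived and 3.13 to 3.63 times in endogenous libraries. This gap was narrower than the 5.48-fold gap of the HOX sum itself. Hoxc10 was at 0.467 to 0.580 of Prrx1 CPM against 0.980 to 1.11, and Hoxa10 at 0.302 to 0.383 against 0.499 to 0.539. Hoxb4 was at 0.243 to 0.252 of Prrx1 CPM in MSC-derived and 0.0269 to 0.0334 in endogenous libraries, so in this measure it was higher in every MSC-derived library.

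Since Hoxb4 and cluster A genes are also used in blood progenitors, a list of 11 such markers was set beside them. Of these, 5 were higher, 3 were lower and 3 did not pass the test, with a summed level of 217 to 223 CPM in MSC-derived and 266 to 381 CPM in endogenous libraries. Runx1, Cd34 and Lyl1 were the most abundant in MSC-derived cells. Lyl1, a blood progenitor transcription factor, was at 37.6 ± 3.32 against 4.06 ± 3.05 CPM (log2 fold change 3.09, SE 0.59), whereas Runx1, which is also used in cartilage, was at 58.8 ± 1.78 against 198 ± 53.0 CPM (-1.87, SE 0.18; SD, n = 3). No marker of the list was at 0 in all libraries of a group, and its part in the level of Hoxb4 was not tested.

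**Figure D4:**
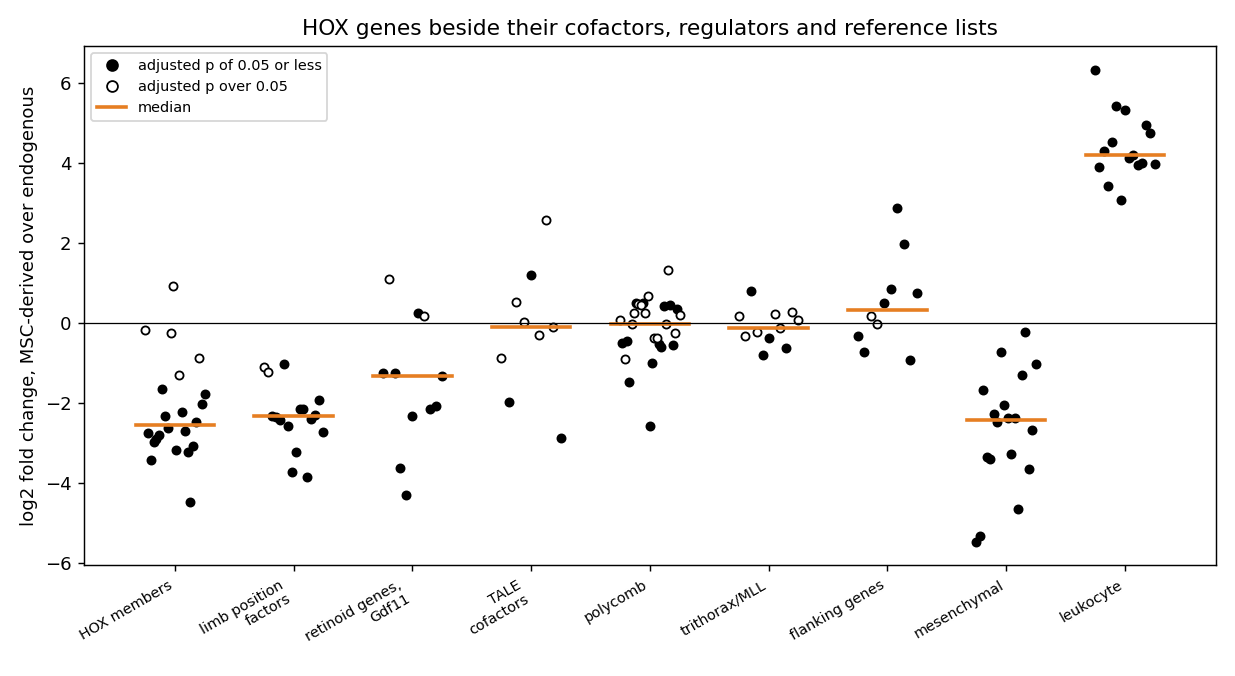
Log2 fold change (MSC-derived over endogenous) of each tested gene of the HOX family and of 8 other lists, with filled circles for an edgeR adjusted p of 0.05 or less and an orange bar at each median. The HOX median (-2.55) lies near those of the limb factors (-2.34) and mesenchymal markers (-2.44), and away from the TALE (-0.11), polycomb (-0.03) and trithorax (-0.14) medians. Of the lists not drawn, chondrocyte (-5.90), osteoblast (-5.68) and adipocyte (-3.85) had medians below that of HOX, and the others had positive medians.

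HOX genes overlap one another and antisense transcripts. In the GENCODE M21 annotation, 14 members overlap a gene on the opposite strand and 14 overlap one on the same strand, among them Hoxa3 with Hoxa4, Hoxa5 and Hoxa6. Whether counting used strand is not given in the sources used here, so reads of such pairs may have been split between them and single values of these members are uncertain.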

How the data were processed

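RNA sequencing of 3 MSC-derived and 3 endogenous Tomato+ libraries was analysed from the deposited gene table. Per the study's methods, reads were cleaned with SOAPnuke, aligned with HISAT2 and Bowtie2 and quantified with RSEM by the authors, and the submitters' processing notes name Bowtie2 2.2.5, RSEM 1.2.12 and mouse build mm9. The methods name later versions of Bowtie2 and RSEM and no build, and which were used for the deposited table could not be settled. The deposited values were RSEM expected counts, FPKM, and a TPM value and a scaled expected count signal for each library; the scaled column was each expected count times 1 constant per library and was not tested. The 8 columns of group means were not used.

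Expected counts were rounded to whole numbers (20.6% of values changed). The main test was edgeR 4.0.16 (quasi-likelihood, TMM, filterByExpr, no covariate) in R 4.3.3 over 14289 genes, with Benjamini-Hochberg adjusted p of 0.05 or less as the threshold and SE taken as the absolute log2 fold change over the root of F. CPM divides a count by the library total, and 3 counts was the floor. FPKM sums differed between groups, so groups were compared by CPM, and TPM was used within a library and, for sums, beside CPM. Counting error only is covered by the floor. On simulated data 81% of 4-fold and 52% of 2-fold changes were recovered among 14289 genes. Only 200 genes were changed there, and both groups were given the same spread, unlike in the real data. These rates therefore need not hold for the real comparison. Alternatives were DESeq2 1.42.0, limma 3.58.1 after log2 transformation of FPKM with a pseudocount of 1 or 0.1, other scalings and filters, an adjusted p of 0.001, a replicate block and leaving out each library. The HOX members and the gene lists were chosen with earlier results of these data known. All HOX members, TALE cofactors, limb factors and genes flanking the clusters could be named; of the polycomb, trithorax and retinoid lists, the 3 with the largest change in each direction past the threshold without overlap; of cell type lists, up to 3 abundant genes. The single values of 1 HOX member and 1 TALE cofactor are not reported here. Promoter windows came from RefSeq (GRCm38.p6), a build other than the one in the processing notes, and no gene coordinate was set beside the counts.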

Additional observations from a re-analysis of the deposited data

How the results depend on the processing

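The 17 members called lower became 16 to 18 under DESeq2, other scalings and filters, limma and the replicate block, 16 to 19 when 1 library was left out, and 8 at an adjusted p of 0.001, where all genes gave 2134 higher and 2380 lower in place of 4468 and 4333. Members called higher were 0 in the main edgeR fit. They were 1 (Hoxb4) under DESeq2, under edgeR with library size alone and under limma with either pseudocount. When 1 library was left out they were 0 to 1 (Hoxb4 without endogenous replicate 1, Hoxb7 without endogenous replicate 3). Leaving out 1 library gave 3672 to 5563 genes higher and 3761 to 5686 lower. Of 333 values of 21 tested members, 316 kept their direction and their side of the threshold, and 17 of these members did so throughout. Hoxd10 lost its call in 7 alternatives, with adjusted p between 0.0513 and 0.136; Hoxc11 gained one under limma with either pseudocount. Hoxb3, which did not pass the test, changed sign. Its log2 fold change was 0.024 with the block, -0.80 to 0.30 when 1 library was left out (0.30 without endogenous replicate 3) and 0.027 under limma with a pseudocount of 0.1. The cause was not tested. Library size alone moved the median of all genes from 0.05 to 0.16. Replicate numbers did not pair the libraries (correlations of deviations -0.0145 to 0.0178), and the replicate block gave 0 members higher and 16 lower, with 4103 and 3920 of all genes. Depth limits the 15 untested members, which have at most 27 counts in any library.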

Other observations

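Genes of a list taken from the surroundings of the HOX clusters went both ways. The list was not complete, and Snx10 and Cbx3 beside cluster A, among others, were not in it. Of 10 tested flanking genes, 5 were higher, 3 were lower and 2 did not pass the test, with a median log2 fold change of 0.32. Among all genes tested, 31.3% were higher and 30.3% lower. Skap2, an adaptor protein of immune cells that borders cluster A, had 3920, 3546 and 3550 counts in MSC-derived and 978, 838 and 847 in endogenous libraries (log2 fold change 1.97, SE 0.10). Skap1, its T cell relative beside cluster B, had 38, 38 and 33 against 1, 8 and 5 counts (2.85, SE 0.71). The mitochondrial gene Mtx2, which borders cluster D, rose by 0.85 on the log2 scale (SE 0.13). Beside cluster C, Calcoco1 and Smug1, a DNA repair glycosylase, were lower, with log2 fold changes of -0.33 (SE 0.09) and -0.94 (SE 0.21). Evx1, the homeobox gene at the 5′ end of cluster A, had 0 counts in all MSC-derived libraries and 0, 6 and 3 in endogenous ones. Skap2 and Skap1 are used in blood cells, whose 15 pan-leukocyte markers were all higher in MSC-derived libraries, and the part of those cells was not tested.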
